A study of Mus musculus with 8 samples.

Results

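The nuclear genes of respiratory complexes II to V were measured in bone marrow of normal and telomere-dysfunctional mice, in sorted granulocyte-monocyte progenitors (GMP) and in the common myeloid progenitors (CMP) that precede them. A gene was a member when its platform symbol was Sdha to Sdhd, began with Uqcr, with Cox4 to Cox8 or with Atp5, or was Cyc1 or Cycs, and when a probe set carried that symbol alone. These rules gave 48 of the 18193 genes with a single-symbol probe set, read by 96 probe sets, of which the one with the highest mean signal over the 8 arrays stood for each gene. Of the 48, 44 passed the filter (at least 2 arrays with a signal of 50 or more) and were tested among 8886 genes. They were 4 of complex II, 9 of complex III, the carrier Cycs, 13 of complex IV and 17 of complex V. The remaining 4 were Cox4i2, Cox7a1, Cox7b2 and Cox8b, all isoforms of complex IV. Of the tested members 41 read 100 or more on all 8 arrays.

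The respiratory chain of the inner mitochondrial membrane passes electrons from nutrients to oxygen and uses the energy to pump protons. Complex II, succinate dehydrogenase, takes electrons from succinate of the citric acid cycle and does not itself pump. Complex III, the cytochrome bc1 complex, hands electrons from ubiquinol to cytochrome c, complex IV, cytochrome c oxidase, passes them on to oxygen, and complex V, the ATP synthase, makes ATP from the returning protons. Complexes III, IV and V also hold subunits encoded by mitochondrial DNA, which are not among the members. Blood stem cells are known to lean on glycolysis, while their committed descendants respire more. In several tissues of mice without telomerase, p53 is known to repress the coactivators PGC-1alpha and PGC-1beta, which drive respiratory genes.

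CMP give rise to all myeloid lineages, and GMP descend from them and make granulocytes and monocytes. The controls were G0 TERTER/+ mice, called normal in the labels, which carry 1 copy of the modified telomerase reverse transcriptase allele, and the telomere-dysfunctional animals were G4/G5 TERTER/ER mice, which carry 2 copies and come from late generations. The allele is known as a fusion of the enzyme with an estrogen receptor domain, inactive without its ligand. All were male, of a background given as mainly C576BL/6 (the spelling of the labels), and age-matched, although the sources used here give no age. Each of the 4 groups held 2 arrays, each from a pool of 4 mice, with 5000 to 20000 sorted cells and 5 to 10 ng of RNA per sample, so that p-values measure the spread between pools. The sources do not say whether CMP and GMP pools of the same number came from the same mice.

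Signals were MAS5 intensities scaled by the authors to a target of 100, with array medians of 14.3 to 18.5 and 31.6% to 35.2% of probe sets at 50 or more. Differences are on the log2(signal + 10) scale, each with the standard error of the fit, and understate the change of dim genes. Levels of different probe sets were not compared. The sums of the listed progenitor markers followed the labels: the 7 GMP markers with a probe set, such as Elane and Mpo, summed to 6614 and 13831 in G0 CMP against 31716 and 32036 in G0 GMP, and to 21937 and 25454 in G4/G5 CMP against 36476 and 36882 in G4/G5 GMP. Single markers did not all do so. Mpo read 8825 and 11199 in G4/G5 CMP against 10015 and 10013 in G4/G5 GMP, and Csf1r overlapped between CMP and GMP of either genotype. The 11 markers of CMP and the megakaryocyte-erythroid side summed to 6453 to 9125 in CMP and to 2461 to 3487 in GMP. Of these, Car1 (996 and 262 in CMP against 143 and 418 in GMP) and Cd34 overlapped between the progenitors in G0. G4/G5 CMP pool 1 stood apart from its partner. The 10 maturing neutrophil markers summed to 56526 on that array and 214 in pool 2, against 294 and 289.9 in the G0 CMP pools, 1464 and 3346 in the G0 GMP pools, and 29651 and 32271 in the G4/G5 GMP pools. The 6 eosinophil, basophil and mast cell markers with a probe set also summed to more on G4/G5 CMP pool 1, 6756 against 2362 in pool 2. They summed to 1818 and 1906 in the G0 CMP pools and to 4010 to 5351 in the GMP pools. All 3 erythroblast and 4 muscle markers measured stayed under 50 on every array. In RNA from a sorted pool, fewer cells of a type and less RNA per cell cannot be told apart.

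Across the 44 tested members, G0 CMP were lowest. With each gene set against its own mean over the 8 arrays, the median member lay at -0.28 and -0.31 in the G0 CMP pools, 0.05 and -0.10 in the G4/G5 CMP pools, 0.17 and 0.11 in the G0 GMP pools, and 0.19 and 0.13 in the G4/G5 GMP pools. The pools of a group differed with a pooled SD of 0.06. Both G4/G5 CMP arrays thus lay between the G0 CMP and the GMP arrays, and the GMP arrays of the genotypes overlapped. Over all 8886 genes the same medians ran only from -0.03 to 0.06.

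**Figure D1:**
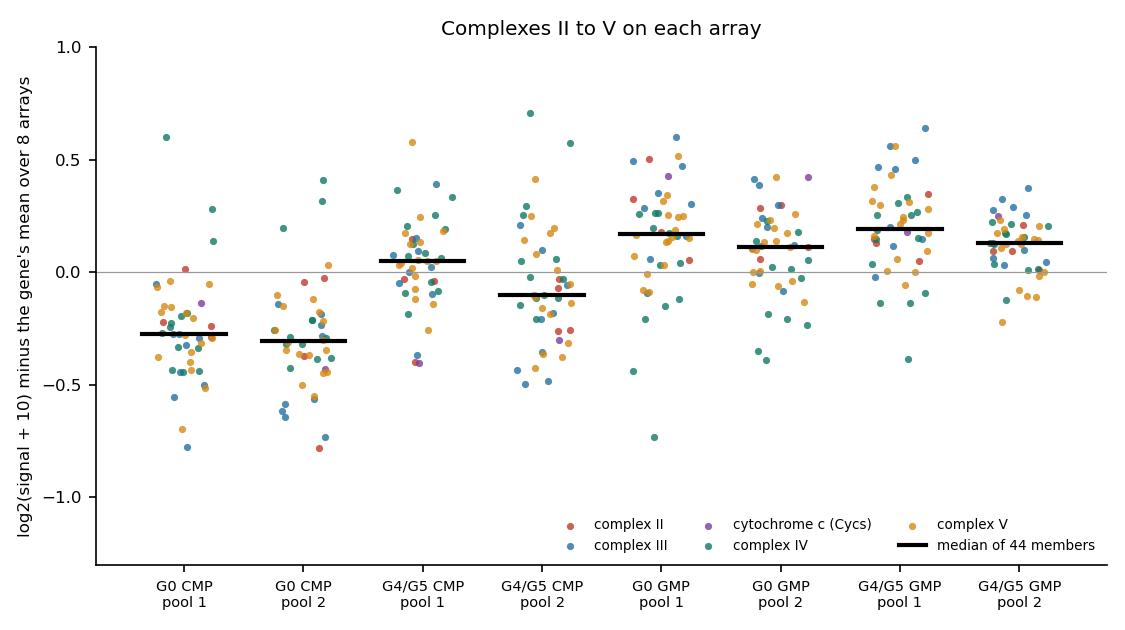
Each point is 1 of the 44 tested members on 1 array, as log2(signal + 10) minus the gene's mean over 8 arrays, coloured by complex, and the black bars are medians of the members. The medians are lowest in G0 CMP (-0.28 and -0.31), intermediate in G4/G5 CMP (0.05 and -0.10) and highest in GMP (0.11 to 0.19).

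The first question was how the progenitors differ in normal mice. In G0, GMP carried more of these transcripts than CMP: 27 of the 44 members were higher at an adjusted p under 0.05 by limma (61.4%, where 10.6% of all 8886 genes were higher) and 0 were lower (10.2% of all genes). The median difference was 0.43, against -0.02 over all genes, and 39 members lay above 0 (88.6%, against 48.7% of all genes). The groups did not overlap for 37 members higher in GMP (84.1%, against 32.2% of all genes) and 2 lower, Cox7c and Cox6a2 (4.55%, against 33.1%). Complex III had the largest median of the complexes, 0.74 with 7 of 9 members higher, followed by complex V with 0.42 and 10 of 17, complex II with 0.38 and 2 of 4, and complex IV with 0.36 and 7 of 13.

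In complex II, the membrane anchor Sdhd rose most. It read 708 and 500.4 in CMP against 1233 and 1067 in GMP of G0 mice, and 847 and 721 against 1103 and 1004 in those of G4/G5 mice. Both G0 GMP pools lay above both G0 CMP pools, and the difference was 0.93 ± 0.18 (adjusted p = 0.0122 by limma), although its other probe set past the filter, dimmer at 101 to 181, gave -0.02. Sdhb, the iron-sulfur subunit, read 1120.2 and 1022 in CMP against 1502 and 1430.2 in GMP of G0 mice, and 1468 and 1263 against 1469 and 1413 in those of G4/G5 mice. It was higher in G0 GMP by 0.45 ± 0.12 (limma, adjusted p = 0.0359), and G4/G5 CMP pool 1 lay within the range of the GMP arrays. The other anchor, Sdhc, read 281 and 319 in CMP against 342 and 343 in GMP of G0 mice, and 319.6 and 322 against 360.5 and 352 in those of G4/G5 mice, a narrow range with G0 GMP above G0 CMP by 0.19 ± 0.13 (adjusted p = 0.317 by limma). Sdha, the flavoprotein that oxidises succinate, was higher in G0 GMP by 0.31 ± 0.11, with groups that did not overlap but an adjusted p of 0.0864 by limma.

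In complex III, Uqcrc1, a core subunit, had the largest rise of all members. It read 594 and 678 in CMP against 1445 and 1368 in GMP of G0 mice, and 992 and 755 against 1516 and 1329 in those of G4/G5 mice. GMP of both genotypes lay well above CMP, by 1.14 ± 0.16 in G0 or 2.2-fold (adjusted p = 0.00451 by limma). Uqcrq, a small ubiquinone-binding subunit, read 604 and 532 in CMP against 1237 and 1098 in GMP of G0 mice, and 831 and 693 against 1394 and 1119 in those of G4/G5 mice, again with all 4 GMP arrays above all 4 CMP arrays (1.03 ± 0.16 in G0, adjusted p = 0.00646 by limma). Cyc1, the cytochrome c1 that passes the electron to cytochrome c, read 1236 and 974 in CMP against 2278 and 1967 in GMP of G0 mice, and 1162 and 1069 against 2124 and 1790.2 in those of G4/G5 mice. Its GMP arrays were all above its CMP arrays (0.94 ± 0.16 in G0, adjusted p = 0.00812 by limma). The small subunit Uqcr11 had 0.77 ± 0.12, the Rieske iron-sulfur protein Uqcrfs1 0.74 ± 0.21, Uqcr10 0.60 ± 0.14 and the ubiquinone-binding subunit Uqcrb 0.33 ± 0.10, all 4 passing (adjusted p from 0.00683 to 0.0476 by limma). Uqcrc2, the partner of Uqcrc1 in the core, had only 0.21 ± 0.12 and the hinge protein Uqcrh 0.14 ± 0.12, and neither passed (adjusted p = 0.244 and 0.409, limma).

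Cycs, the soluble cytochrome c that shuttles between complexes III and IV and also triggers apoptosis when released, read 3681 and 3007 in CMP against 5447 and 5429 in GMP of G0 mice, and 3059 and 3289.8 against 4584 and 4819.7 in those of G4/G5 mice. All GMP arrays lay above all CMP arrays, and the difference in G0 was 0.71 ± 0.12 (adjusted p = 0.0087 by limma).

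In complex IV 7 of 13 members rose. The ubiquitous subunits Cox8a (0.60 ± 0.10), Cox7a2 (0.58 ± 0.12), Cox6b1 (0.50 ± 0.11), Cox5b (0.45 ± 0.12), Cox5a (0.43 ± 0.10), Cox4i1 (0.41 ± 0.11) and Cox6a1 (0.36 ± 0.10) were higher in G0 GMP, with adjusted p from 0.00882 to 0.0414 by limma. Cox8a, for example, read 1388 and 1349 in CMP against 2111 and 2059 in GMP of G0 mice, and 1658 and 1624 against 2098 and 1984 in those of G4/G5 mice, with G0 CMP lowest and both GMP groups overlapping. Cox6c lay above 0 without passing (0.28 ± 0.11, adjusted p = 0.107 by limma), and its other probe set past the filter gave -0.009. The 5 members below 0 were Cox7c, the supercomplex factor Cox7a2l, the muscle and heart isoform Cox6a2 and the testis isoforms Cox6b2 and Cox8c, and none of these passed. Cox6a2 reached the filter through 2 CMP arrays, so that a lower reading in GMP was partly set by the filter. Cox7c was read by a dim probe set at 55.6 to 97.3, with 94.5 and 97.3 in CMP against 67.5 and 55.6 in GMP of G0 mice, and 65.6 and 92.8 against 68.4 and 76.9 in those of G4/G5 mice. Its G0 GMP arrays lay below G0 CMP, with a difference of -0.57 ± 0.21 (adjusted p = 0.0922 by limma), and this probe set can match several genes.

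In complex V, Atp5g1, 1 of 3 genes for the same mature c subunit of the proton-driven ring, rose most. It read 1078 and 994 in CMP against 2087 and 1962 in GMP of G0 mice, and 1218 and 1133 against 1970.0 and 1714 in those of G4/G5 mice. The GMP arrays lay far above the CMP arrays, by 0.96 ± 0.12 in G0 (adjusted p = 0.00355 by limma, the lowest of the members). The subunits of the catalytic head rose too, alpha (Atp5a1, 0.56 ± 0.17), beta (Atp5b, 0.55 ± 0.17), gamma (Atp5c1, 0.48 ± 0.10) and delta (Atp5d, 0.58 ± 0.12), with adjusted p from 0.0142 to 0.0488 by limma. Epsilon (Atp5e) had 0.17 ± 0.11 and did not pass (adjusted p = 0.285, limma). Of the stalk and membrane subunits, OSCP (Atp5o, 0.54 ± 0.12), e (Atp5k, 0.66 ± 0.17), g (Atp5l, 0.50 ± 0.12) and f (Atp5j2, 0.42 ± 0.11) rose, with adjusted p from 0.0166 to 0.0338 by limma. Subunits d (Atp5h, 0.37 ± 0.13), b (Atp5pb, 0.21 ± 0.11) and F6 (Atp5j, 0.08 ± 0.10), DAPIT (Atp5md, 0.33 ± 0.23) and the small proteolipid Atp5mpl (0.20 ± 0.15) did not pass. Atp5j differed least of the subunits of complex V, with 2182 and 2099 in CMP against 2335 and 2201 in GMP of G0 mice, and 2504 and 2522 against 2289 and 2161 in those of G4/G5 mice, and its G0 GMP arrays lay only just above G0 CMP.

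Leaving out 1 array moved the calls in G0 more than the sizes. The calls fell most without either G0 GMP array, among all genes as among the members, and the median difference ran from 0.39 to 0.48 without any 1 array. With no intensity trend 14 members were called and with no signal filter 12, where 1638 and 1233 genes were called in all, against 1845 in the main fit. The value for Atp5k was 0.40 without G0 CMP pool 1. Of 24 members with 2 or more probe sets past the filter, 21 had probe sets that shared the sign in G0. The others were Atp5c1, Cox6c and Sdhd. With quantile normalization the median was 0.32 and Uqcrh and Atp5j lay below 0 (-0.024 and -0.15), and Atp5c1 was read by a dim probe set at -0.35 once probe sets that can match several genes were left out. GMP also carried more GMP marker signal than CMP, and its part in these differences was not tested.

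**Figure D2:**
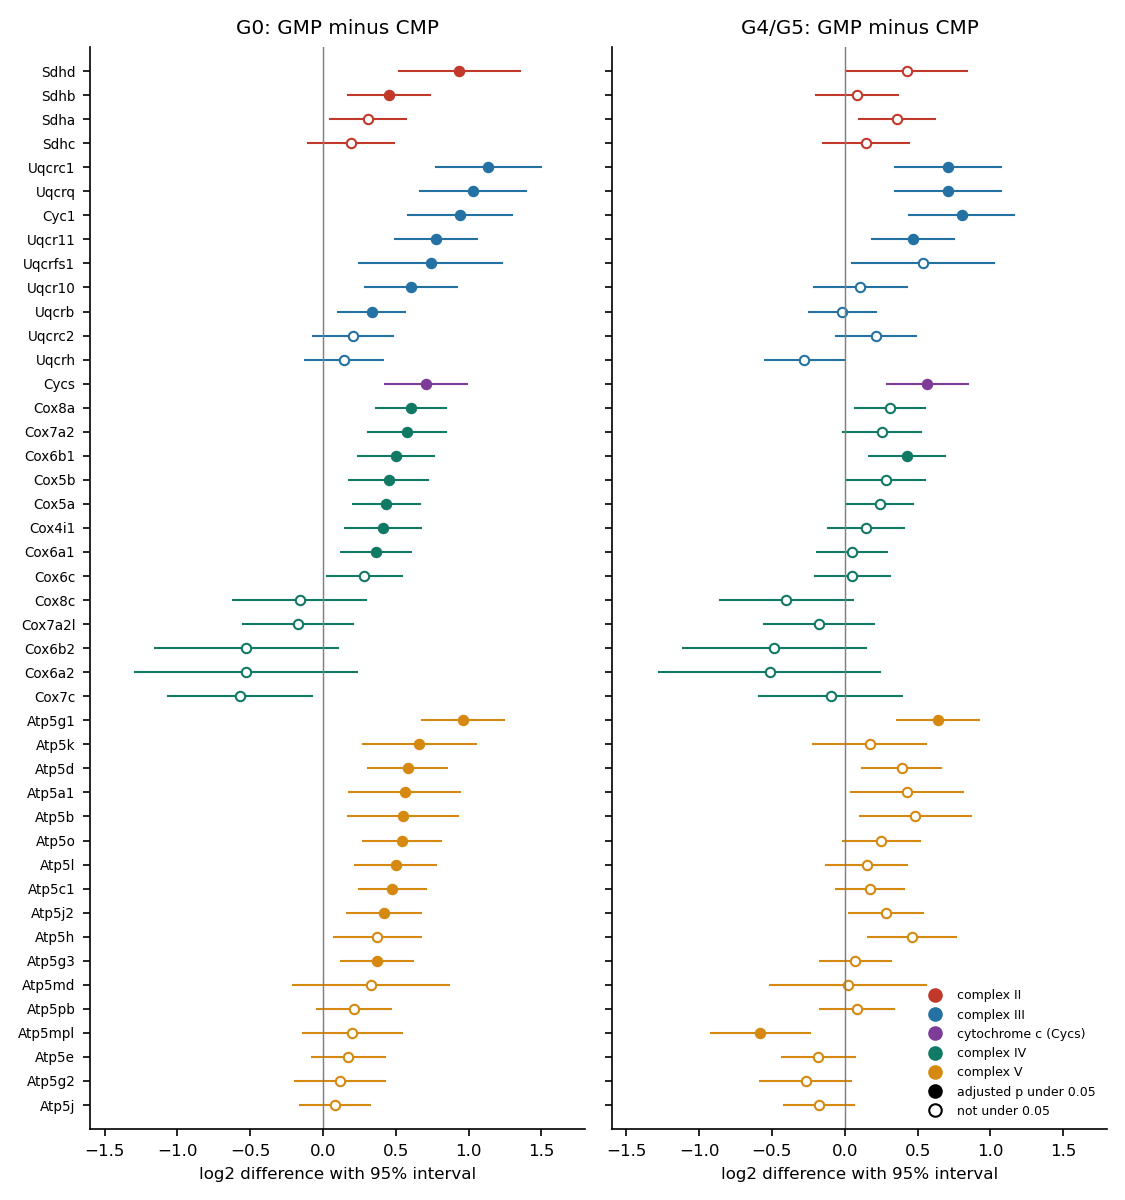
GMP minus CMP differences of the 44 tested members in G0 (left) and G4/G5 (right), in log2 units with 95% intervals from limma, ordered within each complex. Filled points had an adjusted p under 0.05: 27 higher in G0, and 7 higher and 1 lower in G4/G5.

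The windows upstream of 4 members are shown because they differ in these results: Uqcrc1 and Atp5g1 rose most in their complexes in GMP, and Atp5g2 encodes the same mature protein as Atp5g1 and did not pass. Sdha was the member that read lower in G4/G5 without overlap in both progenitors. Each runs from 250 bases before to 50 bases after the start of the gene (RefSeq, GRCm38.p6). Capitals mark matches to GCGCANGCG, the core bound by NRF1, to CCGGAAG of ETS factors such as GABPA, to AAGATGGC of YY1 and to GGGCGG of SP1, searched on both strands.
Uqcrc1, chr9:108936398-108936697, plus strand: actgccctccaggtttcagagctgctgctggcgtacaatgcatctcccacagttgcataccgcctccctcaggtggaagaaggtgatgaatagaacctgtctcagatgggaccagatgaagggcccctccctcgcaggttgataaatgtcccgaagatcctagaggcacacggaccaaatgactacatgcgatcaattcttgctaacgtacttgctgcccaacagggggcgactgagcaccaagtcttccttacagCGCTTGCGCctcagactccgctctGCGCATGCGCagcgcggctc
Atp5g1, chr11:96075582-96075881, minus strand: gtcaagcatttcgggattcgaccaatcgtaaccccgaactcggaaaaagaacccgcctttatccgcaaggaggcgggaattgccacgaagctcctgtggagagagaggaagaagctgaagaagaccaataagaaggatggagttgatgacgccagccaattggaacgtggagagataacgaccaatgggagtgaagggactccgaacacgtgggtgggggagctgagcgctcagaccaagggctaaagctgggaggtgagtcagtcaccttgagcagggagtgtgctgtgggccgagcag
Atp5g2, chr15:102670998-102671297, minus strand: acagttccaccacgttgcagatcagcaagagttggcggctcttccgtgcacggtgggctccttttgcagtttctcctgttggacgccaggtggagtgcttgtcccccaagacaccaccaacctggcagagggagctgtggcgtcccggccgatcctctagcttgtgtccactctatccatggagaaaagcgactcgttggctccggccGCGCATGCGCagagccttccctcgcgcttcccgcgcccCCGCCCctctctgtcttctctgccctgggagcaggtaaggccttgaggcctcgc
Sdha, chr13:74350191-74350490, minus strand: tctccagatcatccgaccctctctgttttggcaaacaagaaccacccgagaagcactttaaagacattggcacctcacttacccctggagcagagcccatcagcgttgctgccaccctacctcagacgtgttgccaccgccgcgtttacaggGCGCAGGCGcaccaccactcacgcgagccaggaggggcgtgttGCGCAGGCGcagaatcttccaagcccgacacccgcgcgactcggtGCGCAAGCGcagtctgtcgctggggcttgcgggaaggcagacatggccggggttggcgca
The first holds 3 NRF1 matches, 2 of which overlap in 1 palindrome, and the fourth holds 3 that do not overlap. Atp5g2 has 1 such palindrome (2 matches) and 1 SP1 match, and none of the letters searched are in the Atp5g1 window.

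Of the 48 members, 36 had a window in the RefSeq table, 39 windows in all. NRF1 letters were in 33.3% of these windows against 6.25% of all 32851 windows, ETS letters in 33.3% against 8.86%, YY1 letters in 7.69% against 2.75%, and SP1 letters in 38.5% against 35.7%. Among the tested members with a window, the 13 with an NRF1 match had a median GMP minus CMP difference in G0 of 0.50 and the 20 without one 0.44. With an ETS match (13 members) the median was 0.45, and without (20) it was 0.46. Within either side the differences spread widely, from 0.12 for Atp5g2 to 1.14 for Uqcrc1 with NRF1 letters and from -0.57 for Cox7c to 0.96 for Atp5g1 without. A match is a run of letters and was not tested as a binding site.

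Ratios between paralogous isoforms are given as descriptions, without a test of the ratio. Atp5g2 read 1600.0 and 2042 in CMP against 1983 and 1938 in GMP of G0 mice, and 2265 and 2376 against 1997 and 1851 in those of G4/G5 mice, and the third gene for the same c subunit, Atp5g3, 3826 and 4210.3 in CMP against 5484 and 4913 in GMP of G0 mice, and 5055 and 5165 against 5464 and 5274 in those of G4/G5 mice. Atp5g2 overlapped between the cell types in G0 and read lower in G4/G5 GMP than in G4/G5 CMP (-0.27 ± 0.14, adjusted p = 0.223 by limma), and Atp5g3 was lowest in G0 CMP and rose there to GMP by 0.37 ± 0.11 (adjusted p = 0.0418 by limma). The log2 ratio of Atp5g1 over Atp5g2 within an array ran from -1.06 to -0.57 in the 4 CMP arrays and from -0.11 to 0.07 in the 4 GMP arrays, a mean difference of 0.88 with SDs of 0.23 and 0.08. Such a ratio depends on both probe sets, so only its change between arrays is meaningful, and it shows unequal change rather than which gene moved. That of Atp5g1 over Atp5g3 differed by 0.58 and that of Atp5g3 over Atp5g2 by 0.30, also with no overlap between the cell types.

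Complex IV has isoform pairs too. Cox6a1, ubiquitous, read 5312 and 5595 in CMP against 7493 and 6571 in GMP of G0 mice, and 7296 and 6933 against 7403 and 7331 in those of G4/G5 mice. Cox6a2, the muscle and heart isoform, read 74.8 and 38.3 in CMP against 31.3 and 37.5 in GMP of G0 mice, and 49.3 and 73.3 against 32.9 and 46.3 in those of G4/G5 mice, dim on all arrays, and the muscle markers Ckm, Acta1, Myh6 and Actc1 stayed under 50. Cox6b1 read 3313 and 3003 in CMP against 4719 and 4234 in GMP of G0 mice, and 3685 and 3404 against 4949 and 4591 in those of G4/G5 mice. Its testis counterpart Cox6b2 read 181 and 335 in CMP against 146 and 194 in GMP of G0 mice, and 318 and 414 against 256 and 256 in those of G4/G5 mice, and differed most between the pools of G0 CMP. Cox7a2 read 3261 and 3555 in CMP against 5301 and 4883 in GMP of G0 mice, and 4664 and 4014 against 5332 and 4992 in those of G4/G5 mice, and the supercomplex factor Cox7a2l 1578 and 1234 in CMP against 1238 and 1239.5 in GMP of G0 mice, and 1846 and 1489 against 1344 and 1599 in those of G4/G5 mice. The first was lowest in G0 CMP, whereas the second overlapped between CMP and GMP of either genotype. The testis isoform Cox8c read 61.6 and 82.8 in CMP against 64.5 and 61.3 in GMP of G0 mice, and 86.5 and 89.3 against 63.8 and 64.5 in those of G4/G5 mice, with G4/G5 CMP highest. Over all 4 CMP and 4 GMP arrays, the log2 ratio of the ubiquitous isoform over its counterpart was higher in GMP by 0.59 for Cox7a2 over Cox7a2l and 0.74 for Cox8a over Cox8c, with no overlap between the cell types, and by 0.97 for Cox6b1 over Cox6b2, whose arrays overlapped. No ratio is given over Cox6a2, which was near or under the filter on most arrays.

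Cox4i1 is the common form of the subunit whose counterpart Cox4i2 is known from lung and low oxygen. Cox4i1 read 2948 and 3255 in CMP against 4101 and 4137 in GMP of G0 mice, and 4557 and 3923 against 4749 and 4595 in those of G4/G5 mice, with G0 CMP lowest and G4/G5 GMP highest. Cox4i2 reached 52.9 on 1 array, G4/G5 CMP pool 1, and 11.8 to 32.6 on the other 7. The muscle isoforms Cox7a1 (at most 17.9) and Cox8b (at most 6.90) and the testis isoform Cox7b2 (at most 2.55) gave no signal near the filter. Cox7b was not analysed here.

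In telomere-dysfunctional mice the median difference between the progenitors was 0.17, where it was 0.43 in G0. Of the 44 members, 7 were higher in G4/G5 GMP than in G4/G5 CMP by limma (15.9%, where 4.18% of all genes were higher) and 1 was lower (2.27%, where 6.29% were lower). Over all genes the median was -0.04. In all, 33 members lay above 0 (75.0%, against 46.3%), and the groups did not overlap for 27 higher (61.4%, against 27.7% of all genes) and 8 lower (18.2%, against 33.0%). The 7 were Cyc1 (0.80 ± 0.16), Uqcrq (0.71 ± 0.16), Uqcrc1 (0.71 ± 0.16), Atp5g1 (0.64 ± 0.12), Cycs (0.57 ± 0.12), Uqcr11 (0.47 ± 0.12) and Cox6b1 (0.43 ± 0.11), with adjusted p from 0.0182 to 0.0496 by limma. All 7 also rose in G0. Atp5mpl, a small proteolipid bound to the ATP synthase, was the member that fell in GMP against CMP (-0.58 ± 0.15, adjusted p = 0.0442 by limma). It read 1362 and 1814 in CMP against 1842 and 1774 in GMP of G0 mice, and 2913 and 2598 against 1874 and 1802 in those of G4/G5 mice, so that the G4/G5 CMP arrays stood above the other 6. The hinge protein Uqcrh read 2149 and 2438 in CMP against 2523 and 2539 in GMP of G0 mice, and 3529 and 3109 against 2651 and 2811 in those of G4/G5 mice, with the same order of groups and a difference of -0.28 ± 0.12 in G4/G5 (adjusted p = 0.159 by limma).

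The signed difference of GMP minus CMP was smaller in G4/G5 than in G0 for 38 of 44 members. The test of that difference itself, the interaction, called 0 members (0.0% of all genes in either direction). By limma 5 of 44 members had an unadjusted p under 0.05, where 353 of all 8886 genes did, and the lowest adjusted p was 0.994. The 5 were Atp5mpl (-0.78 ± 0.21), Uqcr10 (-0.49 ± 0.20), Uqcrh (-0.42 ± 0.17), Atp5e (-0.36 ± 0.15) and Uqcrb (-0.35 ± 0.14). The median interaction was -0.26, and 86.4% of members lay below 0 against 54.9% of all genes. Across the 44 members, the differences in G0 and in G4/G5, which share no arrays but the same probe sets, had a Pearson r of 0.85, given as a description.

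Single arrays and settings also moved the calls in G4/G5, of all genes as of the members. Those of the members fell most without either G4/G5 GMP array, and Atp5mpl lost its call in most fits that left out 1 array. In these fits the median difference ran from 0.14 to 0.26 and that of Atp5mpl from -0.66 to -0.50. With the pool number as a block within cell type 12 members were higher and 1 lower, where 1465 genes were called in all, against 930 in the main fit. With each array centred on its median the split was 7 higher and 0 lower in place of 7 and 1, with 938 genes called in all.

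The next comparison was G4/G5 against G0 within CMP. Here 0 members passed by limma in either direction (0.0% of all genes were higher and 0.0113% lower). An unadjusted p under 0.05 by limma was reached by 22 of 44 members and by 1194 of all 8886 genes, and the lowest adjusted p of the members was 0.199. The members nonetheless lay mostly on 1 side, with 40 of 44 above 0 (90.9%, against 55.6% of all genes) and a median of 0.32 against 0.04. This comparison, that of the progenitors in G0 and the interaction all use the same G0 CMP arrays, so their results are not independent. The groups did not overlap for 31 higher in G4/G5 (70.5%, against 21.7% of all genes) and 2 lower, Sdha and Cox7c (4.55%, against 14.9%). The medians were 0.37 for complex III (9 of 9 above 0), 0.30 for complex V (16 of 17), 0.26 for complex IV (12 of 13) and 0.22 for complex II (3 of 4).

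Atp5mpl differed most in CMP, 0.80 ± 0.15 or 1.75-fold on this scale (adjusted p = 0.199 by limma). Its G4/G5 CMP pools, 2913 and 2598, lay above its G0 CMP pools, 1362 and 1814, and above all GMP arrays. The next lowest p-values were those of Uqcrh with 0.53 ± 0.12 (adjusted p = 0.234 by limma), Atp5e with 0.44 ± 0.11 and Cox4i1 with 0.45 ± 0.11 (adjusted p = 0.25 for both). In complex III, Uqcr11 read 1052 and 1008 in CMP against 1818 and 1716 in GMP of G0 mice, and 1494 and 1316 against 2064 and 1825 in those of G4/G5 mice, and Uqcr10 read 683 and 765 in CMP against 1195 and 1017 in GMP of G0 mice, and 984 and 895 against 1072 and 955 in those of G4/G5 mice. Both were lowest in G0 CMP and had 0.44 ± 0.12 and 0.37 ± 0.14 in G4/G5 CMP. Cox6b2 had 0.54 ± 0.27, but its pools overlapped, and the value was 0.11 without G0 CMP pool 1 and 0.96 without G0 CMP pool 2. The members with the largest rises between the progenitors in G0 were spread widely here, with 0.44 ± 0.16 for Uqcrc1, 0.42 ± 0.16 for Uqcrq, 0.39 ± 0.18 for Sdhd, 0.18 ± 0.12 for Atp5g1 and 0.02 ± 0.16 for Cyc1. Cycs had -0.07 ± 0.12. The sign for Cyc1 turned with quantile normalization (-0.00285) and median centring (-0.026).

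Below 0 in CMP were Sdha (-0.32 ± 0.11), Cox7c (-0.26 ± 0.21, and -0.043 without G4/G5 CMP pool 1), Cycs and Atp5h (-0.02 ± 0.13). Atp5h, subunit d of the ATP synthase stalk, read 3718 and 3029 in CMP against 4282 and 4417 in GMP of G0 mice, and 3549 and 3096 against 4743 and 4399 in those of G4/G5 mice. Its CMP pools of the 2 genotypes overlapped, and with the mean of its probe sets the difference was 0.18. For Sdhd, whose brighter probe set gave 0.39 ± 0.18, the dimmer one gave -0.48, and the brighter one gave 0.14 without G0 CMP pool 2 and 0.63 without G0 CMP pool 1.

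Array by array, the shift in CMP was present in both G4/G5 pools and larger in pool 1, the array with the neutrophil marker signal. GMP marker signal was also higher on both of these arrays (21937 and 25454) than on the G0 CMP arrays (6614 and 13831), and its part in the shift was not tested. Without G4/G5 CMP pool 1 the median was 0.24 and 34 members lay above 0, and without G4/G5 CMP pool 2 it was 0.36 with 40 above 0. The members are bright on these arrays, and with quantile normalization the median was 0.19 with 34 above 0.

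**Figure D3:**
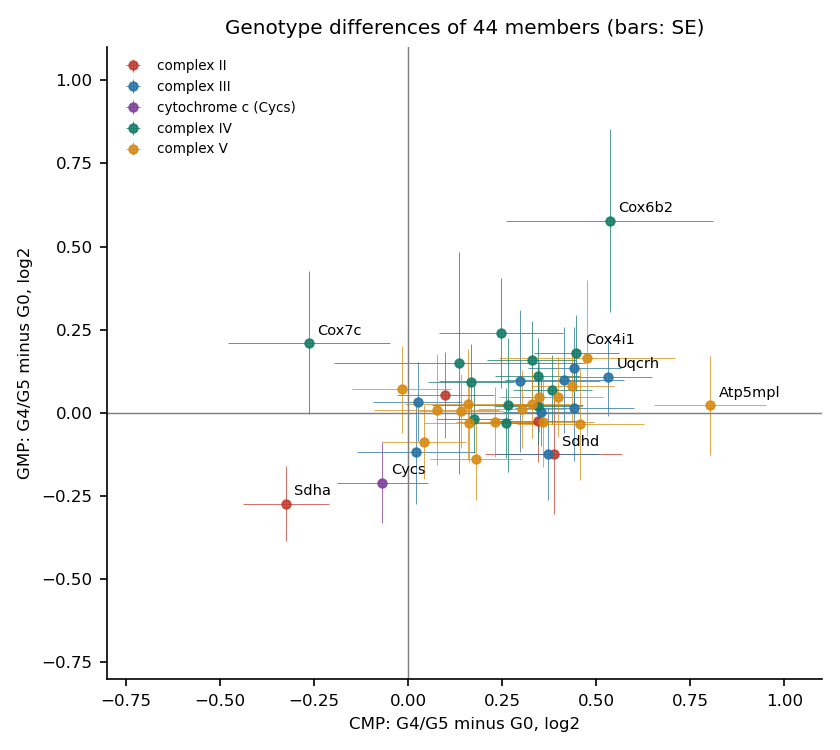
G4/G5 minus G0 differences of the 44 tested members in CMP (horizontal) and GMP (vertical), in log2 units with standard errors from limma, coloured by complex. Most points lie to the right of 0 (40 of 44) and near 0 vertically, with Sdha and Cycs below 0 on both axes.

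In GMP the median difference between the genotypes was near 0. By limma 0 members passed in either direction (0.0% of all genes), and 1 of 44, Sdha, had an unadjusted p under 0.05, where 699 of all 8886 genes did. The median was 0.02, against 0.01 over all genes, with 30 of 44 above 0 (68.2%, against 50.9%). The groups did not overlap for 10 members higher in G4/G5 (22.7%, against 28.8% of all genes) and 3 lower (6.82%, against 26.5%), which were Sdha, Cycs and Atp5pb. Cox6b2 was highest at 0.58 ± 0.27 (adjusted p = 0.633 by limma), with 256 on both G4/G5 GMP arrays against 146 and 194 in G0 GMP. Atp5md, the DAPIT subunit that links ATP synthase dimers, read 388 and 326 in CMP against 472 and 429 in GMP of G0 mice, and 491 and 507 against 667 and 384 in those of G4/G5 mice. Its G4/G5 GMP pools lay on either side of both G0 GMP pools. Cycs had -0.21 ± 0.12, Atp5g1 -0.14 ± 0.12 and Uqcr10 -0.12 ± 0.14, and none passed. The other, dimmer probe sets past the filter gave -0.36 and -0.29 for Cycs and -0.32 and -0.36 for Uqcr10. On each of these both G4/G5 GMP pools lay below both G0 GMP pools. The 95% interval for the brightest members was narrow enough to bound a change: for Uqcrb it ran from -0.23 to 0.23 and for Cox6a1 from -0.17 to 0.31. Neutrophil marker signal was 29651 to 32271 in G4/G5 GMP against 1464 to 3346 in G0 GMP, and its part in these differences was not tested.

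Sdha was the member lower in G4/G5 without overlap in both progenitors (2.27% of members, against 6.4% of all genes), and 7 were higher in both (15.9%, against 10.3%): Atp5l, Cox4i1, Cox5b, Cox6c, Sdhc, Uqcr11 and Uqcrh. The other probe set of Sdhc past the filter gave -0.06 in GMP. That of Cox6c overlapped between the genotypes in CMP (0.05), and that of Uqcrh overlapped in GMP (0.04). The other probe sets of Cox5b past the filter gave 0.11 to 0.14 in GMP, and some of them overlapped there. Of 24 members with 2 or more probe sets past the filter, the sign between genotypes was shared for 19 in CMP and 15 in GMP. Sdha read 1124 and 1093 in CMP against 1394 and 1355 in GMP of G0 mice, and 840.0 and 929 against 1152 and 1120.3 in those of G4/G5 mice. Each G4/G5 pool lay below both G0 pools of its cell type, with differences of -0.32 ± 0.11 in CMP and -0.27 ± 0.11 in GMP, and averaged over both progenitors the difference was -0.30 ± 0.08 (adjusted p = 0.187 by limma). Its other bright probe set gave -0.16 in CMP and -0.24 in GMP. On that probe set the lack of overlap held in GMP only. In CMP the genotypes overlapped, because G4/G5 CMP pool 2, at 648, lay above G0 CMP pool 2, at 628. When single arrays were left out in turn, the average for Sdha over both progenitors ran from -0.33 to -0.26. The other subunits of complex II averaged above 0, at 0.16 for Sdhb, 0.08 for Sdhc and 0.13 for Sdhd. In the average over both progenitors 0 members passed by limma (0.0113% of all genes were higher and 0.0225% lower), and 14 of 44 had an unadjusted p under 0.05, where 1582 of all 8886 genes did. The median was 0.16, with 39 above 0 (88.6%, against 53.9% of all genes).

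**Figure D4:**
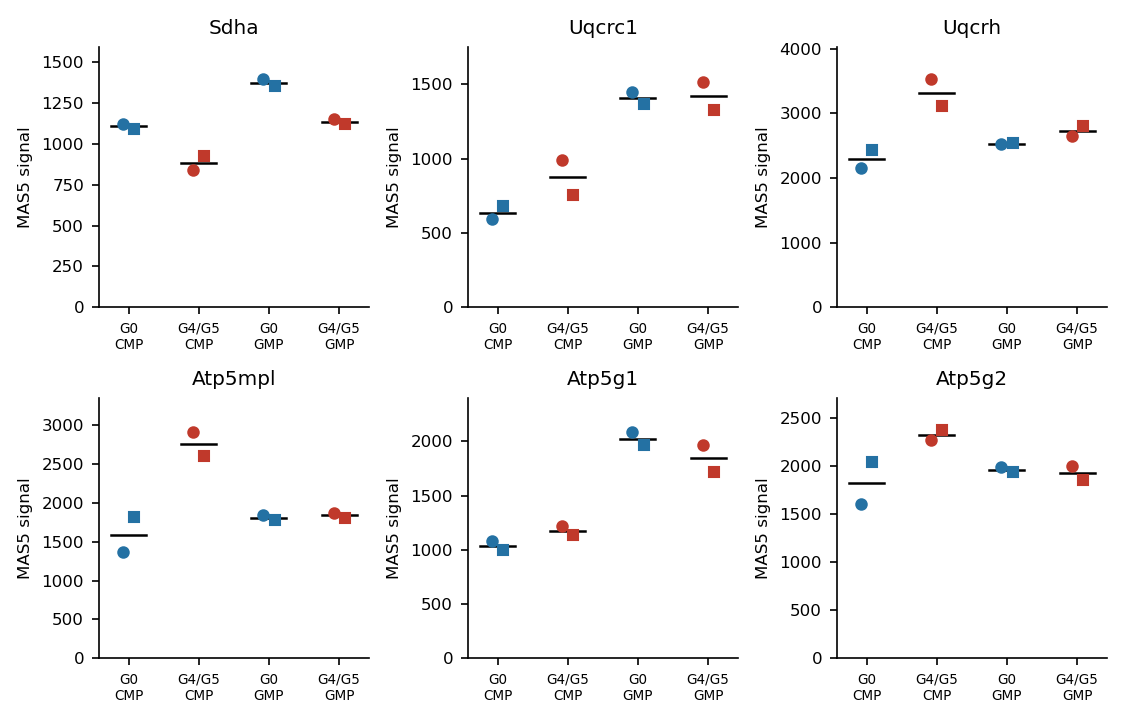
MAS5 signal (linear axis from 0) of 6 members on each array, with circles for pool 1, squares for pool 2, blue for G0, red for G4/G5 and a bar at the mean of each group. Sdha is lower in G4/G5 of both cell types, Uqcrc1 and Atp5g1 are higher in GMP, and Uqcrh, Atp5mpl and Atp5g2 are highest in G4/G5 CMP.

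Other genes of mitochondrial energy metabolism were read by the same test. In G0 GMP against CMP, 19 of 34 complex I subunits were higher (55.9%, against 10.6% of all genes) and 0 lower (median 0.48). Their largest differences were those of Ndufc1 (0.82 ± 0.15) and Ndufb7 (0.82 ± 0.13), both accessory subunits. Assembly factors of complexes II to V were higher in 5 of 34, a share of 14.7% near that of all genes, and lower in 0 (median 0.30). Examples were Coa7 (1.04 ± 0.18), Coa3 (0.68 ± 0.13), which helps to translate and assemble a core subunit of complex IV, and Slirp (0.64 ± 0.14), an RNA-binding protein that stabilises mitochondrial mRNAs. Of 15 genes of pyruvate dehydrogenase and the citric acid cycle 4 were higher (26.7%) and 0 lower (median 0.38), namely Idh3a (0.73 ± 0.21), Dlat (0.69 ± 0.17), Pdhb (0.68 ± 0.18) and Mdh2 (0.57 ± 0.12). Of 6 carriers and channels, 2 were higher (33.3%) and 0 lower (median 0.39), the outer membrane channel Vdac2 (0.84 ± 0.19) and the ADP/ATP carrier Slc25a5 (0.45 ± 0.12).

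Of 13 regulators of nuclear respiratory genes, 0 passed in either direction by limma (median -0.10, with 5 above 0). The ETS factor Gabpa had -0.41 ± 0.13 (adjusted p = 0.0523 by limma), its partner Gabpb1 -0.89 ± 0.34 and the nuclear receptor Esrra 0.59 ± 0.23. Ppargc1a, which encodes PGC-1alpha, did not reach the filter, and Ppargc1b had -0.03 ± 0.21. Between the genotypes in CMP, 0 genes of these lists passed by limma. Complex I subunits had a median of 0.26 with 33 of 34 above 0, beside the 0.32 and 40 of 44 of complexes II to V. The medians were 0.09 for assembly factors, 0.05 for the citric acid cycle list, 0.19 for carriers and -0.15 for the regulators, of which Ppargc1b had -0.13 ± 0.21. In GMP the complex I median was 0.02.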

How the data were processed

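The deposited values were microarray intensities, 1 column for each of 8 arrays and 45101 probe sets. The submitters' processing notes name MAS5, and in the series text a target signal of 100 is what the authors scaled to. The mean after trimming 2% of probe sets per end was 100.001 on every array. Probe-level values and detection calls were not used here. Per the labels, Trizol-extracted RNA was amplified by in vitro transcription and its biotin-labelled product hybridised to a mouse whole-genome Affymetrix array.

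The deposited intensities were taken to log2(signal + 10) without further scaling. Leaving out 64 control probe sets, 34945 had a single symbol in the platform annotation, 932 had more and 9160 had none. Genes entered the test when a probe set with a single symbol read at least 50 on 2 or more arrays, and the brightest such probe set stood for the gene. limma 3.58.1 in R 4.3.3 fitted 1 mean per group over all 8 arrays (4 residual degrees of freedom), with an intensity trend, for 6 comparisons, with Benjamini-Hochberg adjustment over 8886 genes and a threshold of 0.05. Every adjusted p is from limma. Log2 ratios of paralogous isoforms within an array were computed as descriptions.

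The members and lists were chosen with earlier results of these data known, so no test over a list was made. Values on every array are given for the subunits of complex II, for members with paralogous isoforms and, per complex and comparison, for the members with the largest difference in each direction. The series text pairs same-numbered pools of the genotypes within each cell type. Deviations of same-numbered arrays correlated at r = 0.25 in CMP and 0.14 in GMP over the 8886 genes, and the block is an alternative. Other alternatives were the pseudocount, the signal filter, quantile normalization, median centring, the choice of probe set, the trend, fits on the 4 arrays compared, and leaving out each array. The fit was tested on simulated data. Promoter windows came from RefSeq (GRCm38.p6). The number of arrays limits the precision of every value.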

Additional observations from a re-analysis of the deposited data

How the results depend on the processing

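With 2 pools a group, the precision of each value is limited by the spread between pools. With 1 array left out, the lone pool of its group was assumed to vary like the other groups. In these fits the calls among all genes also moved widely. A change in the number of members called is therefore not by itself a result about the members, and the medians are the values to compare. Without any 1 array, members higher in G0 GMP ran from 0 to 27 and lower from 0 to 1 (Cox6b2 without G0 CMP pool 1, Cox7c without G4/G5 CMP pool 1), with medians of 0.39 to 0.48. In G4/G5 they ran from 0 to 10 and 0 to 1, with medians of 0.14 to 0.26. In CMP between genotypes 0 to 4 were higher and 0 lower (medians 0.24 to 0.36). In GMP 0 were called (medians -0.03 to 0.07). In the average over both 0 to 2 were higher and 0 to 1 lower (medians 0.13 to 0.19), and in the interaction 0 were called (medians -0.32 to -0.22). With no signal filter, members higher were 12 in G0 and 2 in G4/G5 (1233 and 492 genes called in all, against 1845 and 930 in the main fit), and with no intensity trend 14 and 2 (1638 and 761 in all). Fitting only the 4 arrays compared gave 18 and 2 (1616 and 428 in all), and under these 3 settings 0 members were lower in G4/G5, as with median centring. Without probe sets that can match several genes 4 were higher and 2 lower in G4/G5 (Atp5mpl and Uqcrh). With the pool number as a replicate block within cell type 12 were higher there (1465 genes called in all), and with 1 block over both cell types 10 (1225 in all). Neither block changed the count of members called by over 1.5 times in any other comparison. Quantile normalization gave medians of 0.19 in CMP, 0.32 in G0 and -0.12 for the interaction, and the mean of probe sets gave 0.25 in CMP. Signs turned for Atp5c1 in G0 GMP against CMP (-0.35 without probe sets that can match several genes), for Atp5j (-0.15) and Uqcrh (-0.024) there and for Cyc1 in CMP (-0.00285) with quantile normalization, for Cyc1 in CMP with median centring (-0.026), and with the mean of probe sets for Atp5h (0.18) and Sdhd (-0.044) in CMP and Sdhc in GMP (-0.00407). Leaving out 1 array turned Atp5h (-0.16 to 0.13), Cyc1 (-0.15 to 0.19) and Cycs (-0.21 to 0.077) in CMP and Atp5md (-0.23 to 0.56) and Cox8a (-0.071 to 0.00897) in GMP. For all of these the cause was not tested. In all, the named differences under settings other than leaving out an array kept their direction and side of the threshold in 569 cases, lost the call in 75 and turned sign in 8. Leaving out 1 array, they kept both in 337 cases, lost the call in 131, gained it in 5 and turned sign in 7.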
